A study of Danio rerio with 13 samples.

Results

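Genes with far-apart alternative promoters were described here across a pair of promoter marks in the zebrafish heart. They were taken as the gene IDs, mitochondrial windows left out, with 2 or more promoter windows whose start positions span at least 20 kb in the deposited tables. 2047 of 24416 genes met this, with 6358 of 42015 windows of 4 kb. The choice used positions only and no measured value. Each of the 2047 genes had all its windows on 1 chromosome and 1 strand.

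Chromatin immunoprecipitation and sequencing (ChIP-seq) compared hearts whose ventricular apex had been resected 5 days earlier with uninjured hearts, using 3 libraries per condition for each mark. All fish were of the TuAB strain, aged 1 to 1.5 years. Cells came from the apical part of the ventricle and were caught on a 10 micrometre mesh to enrich cardiomyocytes, the heart muscle cells, and the antibodies were Cell Signaling C42D8 for H3K4me3 and C36B11 for H3K27me3. Of the 13 samples, 1 mixed input DNA sample was not used here. The design text calls the libraries biological replicates. Each deposited table gives, per window, 1 mean normalised read count over the resected and uninjured libraries together, so a level below carries no error of its own. Values per library and depths are not given in the sources used here.

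Many vertebrate genes can start transcription at more than 1 promoter, and the choice changes the first exon and sometimes the N terminus of the protein. H3K4me3, trimethylation of histone H3 at lysine 4, sits on the nucleosomes around start sites that are in use or poised. H3K27me3, trimethylation at lysine 27, is deposited by the Polycomb complex PRC2 over genes held silent. In muscle, alternative promoters are known for large genes such as that of dystrophin, which makes full-length and short proteins from separate starts.

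Windows of a gene that overlapped were joined into sites, numbered from the upstream end by strand, and a site was represented by its window of highest mean H3K4me3. This gave 4954 sites: 1425 genes had 2 sites, 454 had 3, 118 had 4 and 50 had 5 or more, up to 7. The outermost starts of a gene lay up to 740 kb apart, with a median of 49.5 kb. The number of windows per gene ran from 2 to 17 with a median of 3. Fewer of these windows overlapped a window of another gene than in the series as a whole, 11.7% against 23.1%. Just inside the 20 kb limit, dcaf5 had mean H3K4me3 counts of 403 upstream and 42.3 downstream, and eif3ea had 387 upstream and 34.4 downstream. Just outside it, lin54 had 491 upstream and 35.2 downstream, and scarb1 had 278 upstream and 27.1 downstream.

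As a check of the cell label, the 10 cardiomyocyte markers had mean H3K4me3 counts of 49.8 to 203, with a median of 147, and the 6 neuron markers 40.6 to 73.6. Medians were 241 for the 8 endothelial, 156 for the 8 erythroid and 132 for the 6 epicardial markers, so the levels did not set cardiomyocyte markers apart from these. Markers of other cell types moved with injury at their strongest windows. By the authors' deposited table, lower H3K4me3 in resected hearts was called at 7 of 10 cardiomyocyte markers (median Wald statistic -4.36). In the same direction went 3 of 8 endothelial markers. Higher in resected hearts were 6 of 10 leukocyte markers (median Wald statistic 4.05), 4 of 6 epicardial markers and 2 of 8 erythroid markers. Calls were 0 of 6 for fibroblast and mural cells and 0 of 6 for neurons. The 8 erythroid markers include 2 entries under the symbol hbba1, with adjusted p of 0.114 and 0.0143 in the authors' deposited table. Fewer cells of a type and less mark per cell cannot be told apart in such bulk samples, and the part of these shifts in the results below was not tested.

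In most genes with far-apart promoters, no more than 1 of them carried H3K4me3 in the heart. A site was taken to carry the mark where its mean count reached 82.8, the median of all windows. By that measure 1164 genes (56.9%) had 1 such site, 142 (6.94%) had 2, 21 (1.03%) had 3 or more, and 720 (35.2%) had none. The strongest window of a gene exceeded its next strongest non-overlapping one by a median of 2.93-fold, with quartiles of 1.32 and 7.02. In 878 genes (42.9%) it was at least 4-fold stronger, counted with 1 added to each mean.

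The promoter with H3K4me3 was mostly the most upstream one. Of the 1327 genes whose strongest site carried H3K4me3, 1076 (81.1%) had it at the upstream end, 94 between and 157 at the downstream end. The median H3K4me3 count was 116 at the 2047 most upstream sites, 40.9 at the 860 sites between and 39.3 at the 2047 most downstream sites. The shares of sites that carried the mark were 56.4%, 17.0% and 10.4% in that order. Comparing only the outermost windows, the upstream one had more H3K4me3 in 77.3% of these genes. The share was 79.1% of 2339 genes whose outermost windows did not overlap but started within 20 kb of each other, so this lean was not particular to far-apart promoters.

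**Figure D1:**
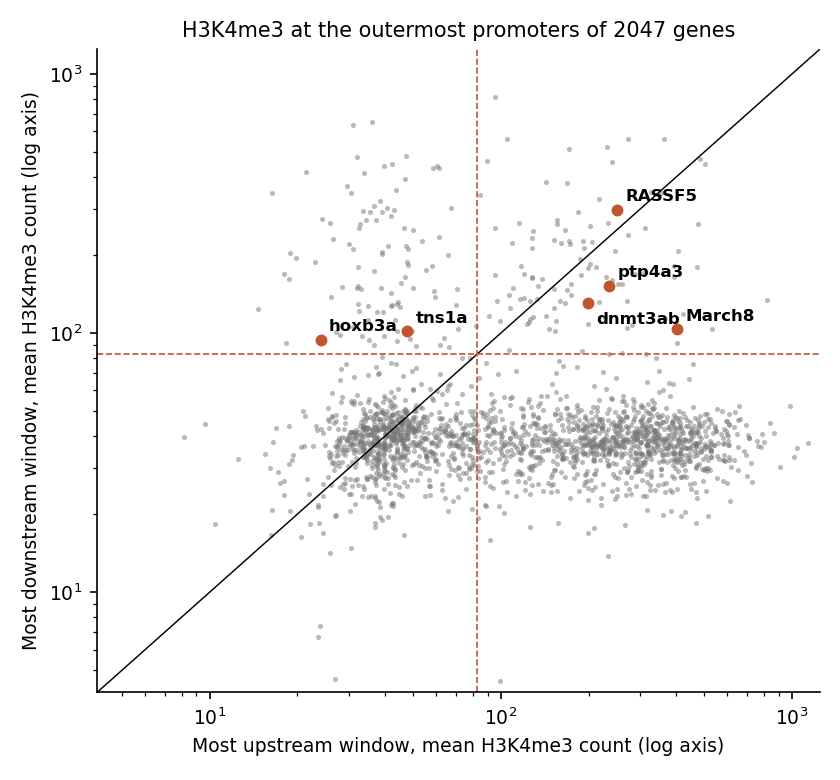
Mean H3K4me3 count of the most upstream (x axis) and most downstream (y axis) window of 2047 genes, both on log axes; dashed lines mark the median of all windows, 82.8, and the solid line equality. Most genes lie below the line of equality with a downstream window near 40, and few lie above both dashed lines, among them March8, RASSF5, dnmt3ab and ptp4a3.

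H3K27me3 differed much less between the promoters of a gene, and its lean was the other way. The median absolute log2 ratio of the outermost windows was 0.33 for H3K27me3 and 1.57 for H3K4me3. In the genes with closer promoters it was 0.38 and 1.92, so this contrast was not particular to far-apart promoters. The upstream window had more H3K27me3 in 840 of the 2047 genes (41.0%). A site was taken to carry H3K27me3 at a mean count of 70.4 or more, the upper quartile of all windows, which 25.9% of upstream, 30.6% of middle and 29.8% of downstream sites reached. The range is narrow, since the lower quartile of all windows was 43.6, and the counts below depend on the cut-offs. In all, 189 sites (3.82%) carried both marks, 1325 (26.7%) H3K4me3 alone, 1216 (24.5%) H3K27me3 alone and 2224 (44.9%) neither. Counted by window, the shares in these genes were 4.51%, 32.4%, 22.1% and 41.0% in that order. Over all windows they were 4.45%, 45.55%, 20.55% and 29.45%. Both marks and H3K27me3 alone were thus about as frequent as in all windows, H3K4me3 alone was less frequent and neither mark more frequent.

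**Figure D2:**
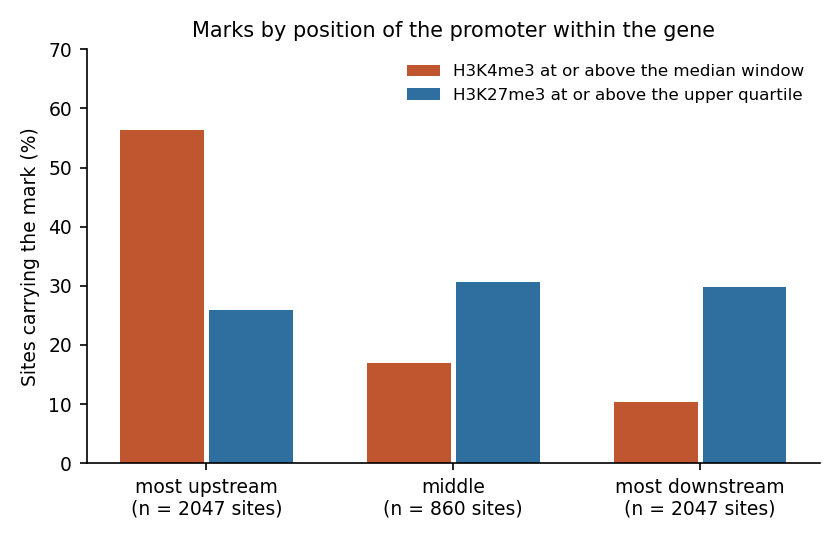
Share of sites (y axis, percent) that carried H3K4me3 or H3K27me3, for the most upstream, middle and most downstream sites of the genes (x axis). H3K4me3 was carried by 56.4% of upstream sites and 10.4% of downstream sites, and H3K27me3 by 25.9% to 30.6% of each kind.

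H3K27me3 was most frequent in genes with no H3K4me3 at any promoter. Some site carried H3K27me3 in 497 of those 720 genes (69.0%), in 473 of the 1164 genes with 1 H3K4me3 site (40.6%) and in 49 of the 163 genes with 2 or more (30.1%). Every site carried it in 145, 43 and 2 genes in the same order. Within genes that had an H3K4me3 site, that strongest site had a median H3K27me3 count of 49.6 and the sites without H3K4me3 had 61.9. Across the 4954 sites the Spearman correlation of the mean counts of the marks was -0.15. Across all 42015 windows it was -0.43, as a description of windows that share the same libraries. A site stands for its window of highest H3K4me3, so the values are not like for like.

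In some genes every promoter was high in H3K27me3. hoxb3a and hoxc3a, chosen after their values were seen, encode homeodomain factors that set position along the body axis. hoxb3a had H3K27me3 counts of 139, 150, 146 and 146 at its 4 windows, which span 44.8 kb, with H3K4me3 at 24.0, 33.2, 50.0 and 94.4. hoxc3a had H3K27me3 counts of 144 to 160 at its 5 windows over 57.3 kb, and H3K4me3 of 32.8 to 46.5. Each window of both genes was thus high in H3K27me3, and only the most downstream window of hoxb3a, which overlaps another gene's window, carried H3K4me3. pax7b, a factor of muscle stem cells, had H3K27me3 of 151 at its upstream window and 71.2 at its downstream window, 68.1 kb away, with H3K4me3 of 33.9 and 49.3 in that order.

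The marks sat on different promoters of the same gene in 350 genes (17.1%), counted where 1 window carried H3K4me3 without H3K27me3 and a window not overlapping it carried H3K27me3 without H3K4me3. In 288 of them (82.3%) the H3K4me3 window was the upstream one. Separated marks were not counted in genes with closer promoters, so the 17.1% cannot be read as particular to far-apart ones. The H3K4me3 windows had median counts of 233 for H3K4me3 and 49.2 for H3K27me3, against a median H3K27me3 of 78.0 at the H3K27me3 windows. These medians follow from how the windows were chosen and are given as a description. Only 79 of the 350 H3K27me3 windows reached 86.1, the level above which 10% of all windows lie.

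The genes with the widest separation by summed log2 ratio had strong H3K4me3 at 1 window and H3K27me3 at or above the cut-off at another. These windows were not always the outermost ones of the gene. ankrd12, which encodes an ankyrin-repeat cofactor, had H3K4me3 of 471 and H3K27me3 of 21.7 at its upstream window, against 23.0 and 84.7 at the window 55.7 kb downstream. pbx4, a homeodomain cofactor of Hox proteins, had H3K4me3 of 610 and H3K27me3 of 51.0 upstream, against 22.5 and 77.6 at the window 52.8 kb downstream. The order was turned in atp1a1a.1, a catalytic subunit of the sodium pump. Its upstream window had H3K4me3 of 27.5 and H3K27me3 of 75.6, and the site 22.4 kb downstream had 702 and 43.2. Others high by this measure were ubtfl, larp1b, b4galt6, plpp3, lancl1, wnk1b, cnot1 and pcdh2g5.

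dmd, the dystrophin gene that links the cytoskeleton of muscle to its membrane, is known in mammals for its string of promoters, and it was picked out after its values were seen. Its 9 windows on chromosome 1 spanned 234 kb. Only the site 190 kb from the first window carried H3K4me3, with a count of 183, and its H3K27me3 count was 47.8. The other windows had H3K4me3 counts of 41.1 to 66.2 and H3K27me3 counts of 61.8 to 117. The highest H3K27me3 count, 117, was at the window 43.5 kb from the first. In the authors' deposited table the H3K4me3 log2 fold change at the 190 kb site was 0.02 ± 0.24 (SE), so no change with injury was detectable there.

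A smaller set of genes carried H3K4me3 at 2 or more sites. The 163 genes with 2 or more carrying sites had a median of 246 at the strongest and 132 at the next, 47.0 kb apart in the median, and in 146 of the 163 these lay 20 kb or more apart. Here the upstream lean was absent: the strongest site lay upstream of the next in 81 of 163 (49.7%). The following genes were among those with the strongest second sites, picked after their values were seen. lonrf1l had counts of 482 and 468, 69.0 kb apart. kdm6ba, which encodes a demethylase of H3K27me3, had 448 at its upstream end, 140 at 89.0 kb and 668 at 120 kb. tcf12, a basic helix-loop-helix factor, had 292 at the upstream end and 317 at 151 kb. None of the windows of these 3 genes changed in the authors' deposited table.

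The second question was whether the promoters of a gene changed differently after resection. The calls are the authors' adjusted p under 0.05 for resected against uninjured hearts, and 2869 of the 6358 windows had an adjusted p for H3K4me3. Of these, 127 windows passed (4.43%, against 2.95% of all windows with an adjusted p). In resected hearts 36 were higher (1.25%, against 1.44% of all) and 91 were lower (3.17%, against 1.51% of all). The share of rises was near that of all windows, and the share of falls was above it. Windows of 1 site overlap and share reads. Joined into sites, 24 rose and 58 fell, in 82 genes. By gene, 1.17% of the 2047 rose and 2.83% fell, against 1.01% and 0.97% of all 24416 genes. Only 10705 of all genes had more than 1 window. Of the 82 sites that changed, 9 overlapped another gene's window, so a shared promoter can count for more than 1 gene. A site was counted where any of its windows passed, and in 1 of the 82 the strongest window of the site did not. In pik3r3b the passing window, 295 kb from the first, had a count of 66.9 and a deposited log2 fold change of -1.03 (adjusted p = 0.0172). The strongest window of that site in pik3r3b, at 291 kb, had a count of 312 and a deposited change of 0.08 (adjusted p = 0.985).

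Each of the 82 genes had exactly 1 site that changed, and no gene had one site up and another down. The changed site was the gene's strongest in 66 genes, the most upstream in 52 and another in 30. The 146 other sites of these genes mostly lay too low to be judged, since 112 had no adjusted p. Their median log2 fold change was -0.05 in the 24 genes that rose and -0.07 in the 58 that fell, by the authors' deposited table. The deposited H3K4me3 changes appear shrunken, which weighs most at low counts. The Wald statistic had the sign of the gene's change at 16 of 34 other sites where the gene rose and 73 of 112 where it fell. Its medians were -0.18 and -0.24 in the same order, against -0.14 over all windows of the 2047 genes. No other site passed when p-values of all windows were adjusted with no filter on low counts. Under that adjustment 11 of the 82 sites no longer passed.

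Heart muscle genes were among those with a fallen promoter. In the list of heart muscle genes 7 of 16 genes fell (43.8%) and 0 rose, beside 58 of all 2047 genes that fell (2.83%) and 24 that rose (1.17%). The median Wald statistic over its 80 windows was -0.51, against -0.14 over the 6358 windows of the 2047 genes and 0.03 over all windows. The list of transcription factors, given below, had a similar median of -0.49. Among them were ttn.2, mybpc3, myom1b, myom2a, sorbs2b and trdn, genes of the sarcomere, of its M band and of calcium release units. ttn.2 encodes titin, the elastic filament of the sarcomere. Its first window had 167 H3K4me3 counts, and the authors' deposited table gave it a log2 fold change of -1.23 ± 0.26 (SE, adjusted p = 0.000499). The windows 72.1 and 84.7 kb downstream in ttn.2 had counts of 49.3 and 57.2 and log2 fold changes of -0.10 and 0.21 in that table. mybpc3, myosin-binding protein C, had a count of 172 at its upstream site with -1.12 ± 0.27 (adjusted p = 0.00389), and its other windows, with counts of 41.9 to 51.0, had deposited log2 fold changes of -0.26 to 0.04. The 7 of 10 cardiomyocyte markers that fell include ttn.2 itself.

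Internal promoters were the ones that fell in several other genes. arvcfb, a catenin of cell junctions, had H3K4me3 of 361 at the site 100 kb from its first window, and 37.0 to 45.4 at its other windows. The deposited log2 fold change at that site of arvcfb was -1.12 ± 0.25 (SE, adjusted p = 0.00097). foxp2, a forkhead repressor, had 113 at 56.1 kb with a deposited change of -1.06 ± 0.27 (adjusted p = 0.00712), and 36.3 and 41.5 at its other sites. plecb encodes plectin, a linker of intermediate filaments. It had 101 at 131 kb with a deposited log2 fold change of -1.15 ± 0.28 (adjusted p = 0.00338), against counts of 34.1 to 55.2 at its other windows. tns1a, a tensin of focal adhesions, had 102 at its most downstream window with a deposited change of -1.12 ± 0.28 (adjusted p = 0.00533), and 45.8 to 48.5 at its other windows. In each of these 4 genes the promoter that fell was the only one that carried H3K4me3.

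Among the 24 genes with a risen promoter were the following. rbm47, an RNA-binding protein, had 103 counts upstream and a deposited log2 fold change of 1.41 ± 0.26 (SE, adjusted p = 5.35e-05). The rbm47 window 36.6 kb downstream had a count of 33.5 and a deposited change of 0.04 ± 0.30. kif20ba and cenpe encode mitotic kinesins, and their upstream sites had deposited changes of 1.18 ± 0.28 (adjusted p = 0.00271) and 1.06 ± 0.28 (adjusted p = 0.0119). diaph3, a formin needed for cytokinesis, had a deposited change of 1.03 ± 0.27 (adjusted p = 0.00862), and myh9a, a non-muscle myosin heavy chain, one of 0.98 ± 0.27 (adjusted p = 0.0158). By their strongest windows, the risen sites of cenpe and diaph3 had counts of 89.1 and 91.8. That of kif20ba had 81.2, under the 82.8 taken for carrying H3K4me3. lcp1 encodes L-plastin, an actin bundler of leukocytes and 1 of the leukocyte markers above. Its upstream window had a count of 126 and a deposited change of 1.03 ± 0.26 (adjusted p = 0.00508), against 17.8 and -0.35 ± 0.29 at the lcp1 window 34.1 kb downstream.

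The other lists are read against the 4.01% of the 2047 genes that changed, 1.17% that rose and 2.83% that fell. Among 39 genes known in mammals for alternative promoters, 3 fell (7.69%) and 0 rose: foxp2, mef2d and plecb. Among 49 genes of the cytoskeleton and its membrane links, 3 fell (6.12%: flncb, plecb and tns1a) and 2 rose (4.08%: diaph3 and myh9a). Among 27 transcription factors 1 rose and 1 fell (3.70% each), and among 31 chromatin and RNA regulators 1 rose and 1 fell (3.23% each). Of 37 genes of signalling, adhesion and guidance, 0 changed, with an unadjusted p under 0.05 at some window in 7 of them. In the lists above such a window was present in 9 of the 39, 14 of the 49, 9 of the 27 and 6 of the 31 genes. The share over all 2047 genes is not given here, so these counts are not read as change. The median Wald statistics of these 5 lists ran from -0.49 to -0.21, against -0.14 over the 6358 windows and 0.03 over all windows. The lists overlap, and plecb and mef2d each stand in more than 1.

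In 19 of the 82 genes another site carried H3K4me3 and did not pass, 4 with a rise and 15 with a fall. By its strongest window, the site that passed also carried the mark in 17 of these, though in pik3r3b the window that passed did not carry it. In mtus1b the site that passed had a count of 74.8 and in CR847953.1 one of 79.1. By its strongest window the site that passed was the weaker in 16 of the 19, and it lay downstream of the first site in 16. Because that site was picked for its change, the contrast with the other site is a description. In the direct tests of a difference given below, only March8 of the 19 passed. In the other 63 genes no other site carried the mark.

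March8, a membrane-bound ubiquitin ligase that removes receptors from the cell surface, had the widest contrast of the 16 genes plotted for their 2 sites. It lies on the minus strand of chromosome 13, with its upstream window at chr13:17878217-17882216 and its most downstream one at chr13:17727316-17731315, in the files' coordinates, whose build is not stated. The upstream window had an H3K4me3 count of 402, with a deposited log2 fold change of -0.25 ± 0.22 (SE, adjusted p = 0.848). The downstream window, 151 kb away, had a count of 103 and a deposited change of 1.39 ± 0.26 (adjusted p = 9.01e-05). The weaker promoter of March8 rose and the stronger did not pass. H3K27me3 at the downstream window had a deposited log2 fold change of -1.44 ± 0.65 (unadjusted p = 0.027), which did not pass adjustment. The level there was low: the strongest window of that site had a mean H3K27me3 count of 31.6. The lower quartile of all windows was 43.6, so the site did not carry H3K27me3.

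mef2d, a MADS-box factor of muscle genes, did not pass at its strong first site, which had a count of 605, with a deposited log2 fold change of -0.13 ± 0.23 (SE, adjusted p = 0.962). The site 30.1 kb downstream in mef2d fell, with a count of 89.5 and a deposited change of -1.18 ± 0.29 (adjusted p = 0.00372). dnmt3ab, a de novo DNA methyltransferase, had 199 at its upstream window with a deposited change of 0.06 ± 0.24 (adjusted p = 0.989). Its other window, 66.4 kb downstream, fell, with a count of 130 and a deposited change of -1.14 ± 0.26 (adjusted p = 0.00196). ptp4a3, a tyrosine phosphatase, had 235 upstream with a deposited change of -0.24 ± 0.25 (adjusted p = 0.896), and 152 at 35.4 kb with -1.43 ± 0.27 (adjusted p = 6.73e-05). The z test given below, of a gene's strongest window against its next strongest, did not pass in mef2d, dnmt3ab or ptp4a3. Its adjusted p was 0.361, 0.12 and 0.154 in that order.

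prkag2a encodes a regulatory subunit of the energy sensor AMPK, and 3 of its 4 windows carried H3K4me3. Its middle window at 48.4 kb fell, with 141 counts and a deposited log2 fold change of -1.0 ± 0.27 (SE, adjusted p = 0.0121). The windows of prkag2a on either side had counts of 118 and 178 and deposited changes of -0.25 ± 0.26 and 0.23 ± 0.24. ppp1r13ba, which encodes a p53-binding protein, had 157 upstream with a deposited change of -0.21 ± 0.26, and 207 at 20.5 kb with -1.23 ± 0.26 (adjusted p = 0.000382). ppp1r13ba was among the 3 genes in which the site that passed was the stronger by its strongest window. In pik3r3b, another of the 3, that strongest window did not itself pass.

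**Figure D3:**
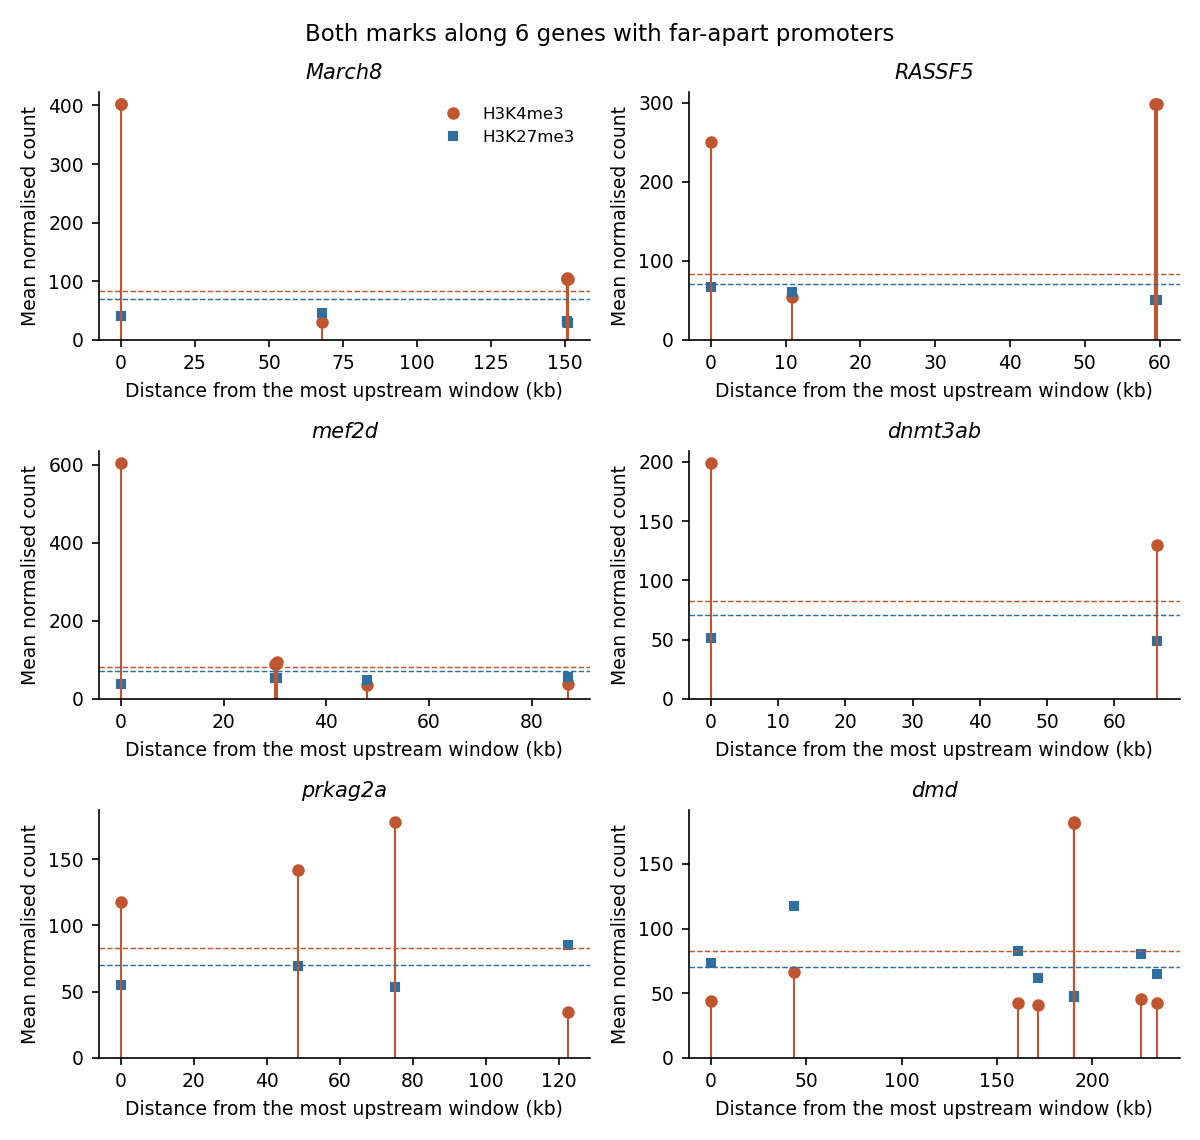
Mean normalised count of H3K4me3 (circles on stems) and H3K27me3 (squares) at each window of 6 genes (y axis), by distance in kb from the most upstream window (x axis); dashed lines mark 82.8 for H3K4me3 and 70.4 for H3K27me3. Both ends of March8, RASSF5 and dnmt3ab stand above the H3K4me3 line, while dmd has 1 such site, at 190 kb.

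Rises at a second promoter were seen in ef1 and mtus1b besides March8. ef1, which the table of gene names gives as elf1, an ETS factor, had a count of 331 upstream with a deposited log2 fold change of -0.14 ± 0.24 (SE, adjusted p = 0.963). Its site at 29.1 kb had 129 with a deposited change of 0.92 ± 0.25 (adjusted p = 0.0146). mtus1b, a microtubule-associated protein, had 164 upstream with a deposited change of -0.06 ± 0.25 (adjusted p = 0.989), and 74.8 at 52.0 kb with 1.04 ± 0.28 (adjusted p = 0.0139). dab2ipb and cast fell at the site that passed, with deposited log2 fold changes of -0.77 ± 0.23 (adjusted p = 0.0293) and -0.86 ± 0.27 (adjusted p = 0.0458). Their strongest other sites had 0.39 ± 0.27 and 0.38 ± 0.22 in that table. The window of dab2ipb that passed overlaps another gene's window, so its fall cannot be assigned to dab2ipb alone.

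**Figure D4:**
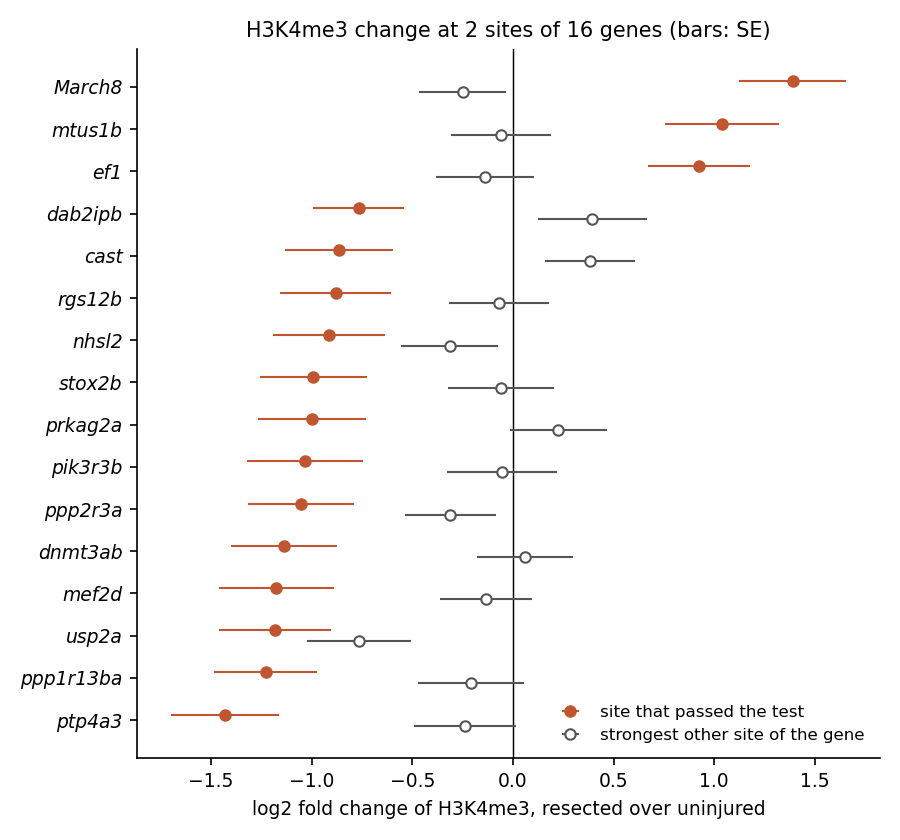
Deposited log2 fold change of H3K4me3, resected over uninjured (x axis), at the site that passed the authors' test (filled) and the strongest other site (open) of 16 of the 19 genes (y axis), without clone names and genes not reported here; bars are SE. The filled points run from -1.43 in ptp4a3 to 1.39 in March8, and the open points from -0.77 in usp2a to 0.39 in dab2ipb.

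A direct test of the difference between the outermost windows of a gene passed in few. It was a two-sided z test on the difference of the deposited log2 fold changes, upstream minus downstream, with their standard errors, Benjamini-Hochberg adjusted over the 4386 genes whose outermost windows do not overlap. It passed in March8 and RASSF5, 2 of 2047 genes, against 0.0912% of all genes tested. March8 had a difference of -1.64 ± 0.34 (SE, adjusted p = 0.00416).

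RASSF5, known in mammals as an effector of Ras and Rap1 in lymphocyte adhesion, differed although neither of its ends passed alone. It lies on the minus strand of chromosome 11, at chr11:21201267-21205266 upstream and chr11:21141575-21145574 downstream, 59.7 kb apart. The upstream window had a count of 251, with a deposited log2 fold change of -0.68 ± 0.24 (SE, adjusted p = 0.0942). The downstream window had a count of 299 and a deposited change of 0.69 ± 0.23 (adjusted p = 0.0793). The promoters of RASSF5 thus had nearly equal levels and opposite signs, with a difference of -1.38 ± 0.33 (adjusted p = 0.0362). Beside this, 6 of 10 leukocyte markers rose, and their part in the difference was not tested.

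None of the other genes passed. Among those that came next, with others between them left out, ttn.2 had a difference of -1.44 ± 0.39 (adjusted p = 0.0938) and lcp1 one of 1.38 ± 0.39 (adjusted p = 0.101). myom1b had one of -1.42 ± 0.40 (adjusted p = 0.104) and dnmt3ab one of 1.20 ± 0.36 (adjusted p = 0.135). With the shrinkage undone, the adjusted p of this z test was 0.2 for ttn.2, 0.401 for lcp1, 0.21 for myom1b and 0.165 for dnmt3ab. An unadjusted p under 0.05 was found in 151 of the 2047 genes (7.38%), against 7.27% of the genes with closer promoters. The same 2 genes passed when the strongest window of a gene was set against its next strongest, against 0.0917% of all genes tested. Errors of windows in the same libraries may be correlated, which the deposited values do not show: with an assumed correlation of 0.2 the count was 14, and with 0.5 it was 120.

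Where both outermost windows carried H3K4me3, their changes went together weakly. The Spearman correlation of the Wald statistics was 0.20 over 105 such genes and -0.01 over 1149 genes in which 1 end carried the mark. Windows of a gene share libraries, and at low counts the correlation is not informative. For H3K27me3 the values were 0.29 and 0.04 in the same order.

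For H3K27me3 no window changed by the authors' adjusted p, in these genes or in the series (0% of 41651 windows). An unadjusted p under 0.05 was given to 149 of the 6358 windows (2.34%, against 3.07% of all). The within-gene difference passed in 0 of 2047 genes by the z test, against 0% of all genes tested and 0% with the strongest windows. Its unadjusted p was under 0.05 in 41 genes (2.00%), against 2.10% of the genes with closer promoters. The median SE of a window's deposited H3K27me3 change was 0.42 in these genes, so differences of modest size could be missed. Among the named genes, the smallest p-values upward were in tpra, tonsl, map1ab and ank2b. tpra had a deposited log2 fold change of 0.88 ± 0.29 (SE, unadjusted p = 0.00271) at its downstream site, where the H3K27me3 count was 159. tonsl, map1ab and ank2b had deposited changes of 0.98, 0.98 and 1.03 with unadjusted p of 0.00487, 0.00628 and 0.00957. Downward they were at windows of low H3K27me3: atf7ip, ptbp3, foxp1a and baz2ba had H3K27me3 counts of at most 41.9 and deposited changes of -1.75 to -1.53.

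The sites whose H3K4me3 changed leaned the opposite way in H3K27me3, without any passing window. H3K27me3 had a Wald statistic below 0 at 16 of the 24 sites that rose in H3K4me3 (median -0.69). At the 58 sites that fell it was above 0 at 44 (median 0.65). Over all windows it was above 0 in 48.9%, with a median of -0.02, and over the windows of the 2047 genes its median was 0.09. The changed sites did not all carry H3K27me3: its mean count was 41.1 in diaph3 and 94.1 in flncb, for example. The other sites of the genes that changed had median H3K27me3 Wald statistics of 0.28 where the gene rose and 0.29 where it fell. Among the 350 genes with the marks on separate promoters, the H3K4me3 window fell in 14 (4%) and rose in 0. All 350 of these windows had an adjusted p. Of the 2345 member windows that carried H3K4me3 and had one, 3.71% fell and 0.94% rose, so few rises would be looked for among 350. Of the 350 H3K27me3 windows, 312 had no adjusted p for H3K4me3 and so could not be called for it. The other 38 did not pass.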

How the data were processed

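Promoter H3K4me3 and H3K27me3 were compared between resected and uninjured hearts, 3 ChIP libraries per group. Tools listed in the submitters' processing notes, without their roles, are DESeq2, MACS2, bedtools 2.26.0, SAMtools, Picard 2.8.1, BWA and Bowtie2 2.3.2. The notes list danRer10, GRCz10 and danRer7 as builds, so that of the windows is not stated. Per the file headers, the authors deposited, per window, a signal (mean normalised count), a log2 fold change, its standard error and Wald statistic (both treated as a score), and a p-value with its adjusted form. The deposited H3K4me3 fold changes appear shrunken: their standard errors stop at a ceiling that a prior SD of 0.603 would give. The count test planned needs values per library, which the files lack, so the authors' comparison took its place. Depth and counting precision per library are unknown. Differences within genes were z tests in Python 3.11.15 with scipy 1.17.1, tested on simulated data. The simulation drew independent errors for the windows of a gene and unshrunken changes, so it cannot show how the test behaves with correlated errors or shrinkage.

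Members, lists and named genes were chosen with earlier results of these data known. The rule for names took up to 12 passing windows per direction by adjusted p, 12 genes by within-gene p, 12 by separation of the marks, the 5 widest, the 5 with most windows and up to 4 per list. Other genes are said to have been chosen after their values were seen, and so were the genes with 2 carrying sites and the internal promoters. No genome of the files' build was used here, so no sequence is printed. Alternatives were stricter and looser thresholds, no filter on low counts, other spans, shrinkage undone, other window pairs and correlated errors. Some genes are not reported here by name.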

Additional observations from a re-analysis of the deposited data

How the results depend on the processing

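No paired analysis was possible because the deposited tables hold no values per library, and for the same reason no library could be left out. The count of 127 H3K4me3 windows that passed was 64 at an adjusted p under 0.01, 65 with a span of at least 50 kb and 82 with overlapping windows joined, the last chosen after seeing the data. Genes with a within-gene difference numbered 14 and 120 with error correlations of 0.2 and 0.5 for H3K4me3, in place of 2, and 2 with 0.5 for H3K27me3, in place of 0. The pair of strongest windows, also chosen after seeing the data, gave 2 again, as did undoing the shrinkage. The 350 genes with separated marks were 171 with H3K4me3 at the upper quartile and 96 with H3K27me3 at the level of the top 10%. The 878 genes with 1 dominant window were 411 at a ratio of 8. Of the 24 genes named for the smallest adjusted p in either direction, 5 lost their call at an adjusted p under 0.01: cenpe, mtus1b, ef1, myh9a and myo9b. Other genes named above were not in that count, and prkag2a, flncb, pik3r3b, dab2ipb and cast among them also had an adjusted p above 0.01. No result reversed. What the unknown depth hides cannot be given.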

Other observations

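A few promoters of these genes were high in both marks, and the genes named here were picked after their values were seen. csmd2, which encodes a large membrane protein with complement-control domains, had a mean H3K27me3 count of 690 and a mean H3K4me3 count of 283 at its upstream window, against 59.8 and 41.3 at the window 248 kb downstream. capn3a, a calpain protease known in mammals for its role in skeletal muscle, had 279 and 138 in the same order upstream, against 53.9 and 32.5 at the window 143 kb downstream. No change of either mark passed at these windows in the authors' deposited tables.

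macrod2, with the widest span of 740 kb, had H3K4me3 of 93.2 at its upstream window, which overlaps another gene's window, and 41.2 at its downstream window. asic2, an acid-sensing ion channel of neurons, had H3K4me3 of at most 42.5 at both ends, 681 kb apart, with H3K27me3 of 77.8 upstream and 75.6 downstream.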
